A study of Homo sapiens with 192 samples.

Results

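LS174T is an established human colorectal cancer (CRC) line from a colon adenocarcinoma, known for making mucin. RNA sequencing covered 24 libraries, 3 for each growth form (2D or 3D) of LS174T and of 3 further CRC lines, HT29, HCT116 and LS513. The 6 LS174T libraries, 3 from 2D and 3 from 3D growth, were taken by their line and growth labels and are described here. The cells of both groups carried no treatment or engineered change that the labels name, and the plate and the time in culture of the sequenced 3D cells are not given in the sources used here. It is a single line, and nothing says that the 3 libraries of a group came from separate cultures. The p-values therefore measure only spread between libraries, which may be technical. In the main test that spread was estimated over all 24 libraries, those of the other lines included.

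A flat layer on plastic has even access to oxygen and medium, whereas cells packed in 3D live under gradients of oxygen and nutrients. In cells short of oxygen, hypoxia-inducible factors (HIF) switch on genes for glycolysis, pH control, vessel growth and mitochondrial turnover. In the colon, stem and dividing cells lie at the crypt base, and the cells that leave it become absorptive colonocytes, mucus-making goblet cells or hormone-making enteroendocrine cells.

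After the 8 technical replicates of each library were summed, the LS174T libraries held 29400099 to 31484814 counts. Levels are given in CPM, a count relative to the library total scaled by edgeR's TMM factors, and 3 counts, the floor used for detection, are about 0.1 CPM. The epithelial genes KRT8, KRT18, EPCAM and others of that list summed to between 3657 and 5102 CPM in 2D and between 4725 and 7100 CPM in 3D. Markers of other cell types were near the floor, with sums of 0.837 to 1.36 CPM for 9 fibroblast genes, 0.178 to 0.911 CPM for 9 leukocyte genes and 0.0299 to 0.237 CPM for 6 endothelial genes. In these bulk libraries, fewer cells of a type and less RNA per cell cannot be told apart.

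One library stood apart, the second 3D library. The root mean square difference in log2 CPM over the 19387 tested genes was 0.54 between 3D libraries 1 and 2 and 0.62 between 2 and 3, against 0.37 between 1 and 3. The 3 pairs of 2D libraries lay between 0.32 and 0.39. The mean over the pairs was 0.51 for LS174T in 3D and 0.53 for HT29 in 2D. It was 0.38 to 0.47 in the remaining groups of the other lines, so on this measure LS174T in 3D was not the widest group. The spread that edgeR estimated, as a biological coefficient of variation, was 20.6% for LS174T in 3D and 6.86% in 2D, and 6.03% to 14.2% for the 6 groups of the other lines. Library 2 was the 3D library farthest from the mean of the other two for 59.2% of the genes. The spread is given as a description, with no test. Many results are also given without 3D library 2.

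The difference of library 2 ran along gene length. For protein-coding genes with 1 to 2 kb of exonic sequence its median log2 difference from the 2D mean was 0.51, and for genes over 8 kb it was -0.41. In library 1 these medians were 0.17 and -0.17, and in library 3 they were 0.05 and -0.04. Library 3 was thus the closest to 2D and library 2 the farthest at both ends of the range. Mitochondrial ribosomal RNA took 0.335%, 0.805% and 0.185% of the counts of 3D libraries 1, 2 and 3, and 0.131% to 0.180% in 2D. Libraries of the other lines ranged from 0.0908% to 0.819%, so the share in library 2 lay within their range. Genes for cytosolic ribosomal proteins, which are short, took 7.80%, 11.8% and 6.99%, against 5.66% to 5.85% in 2D and 4.56% to 10.1% in the other lines. In an alternative chosen after the data were seen, each library's trend on length was removed. It left 2279 genes higher in 3D (11.8% of those tested) and 1638 lower (8.45%). The removal also takes out any growth effect that runs along length, so these counts do not measure the part of length in the calls.

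**Figure D1:**
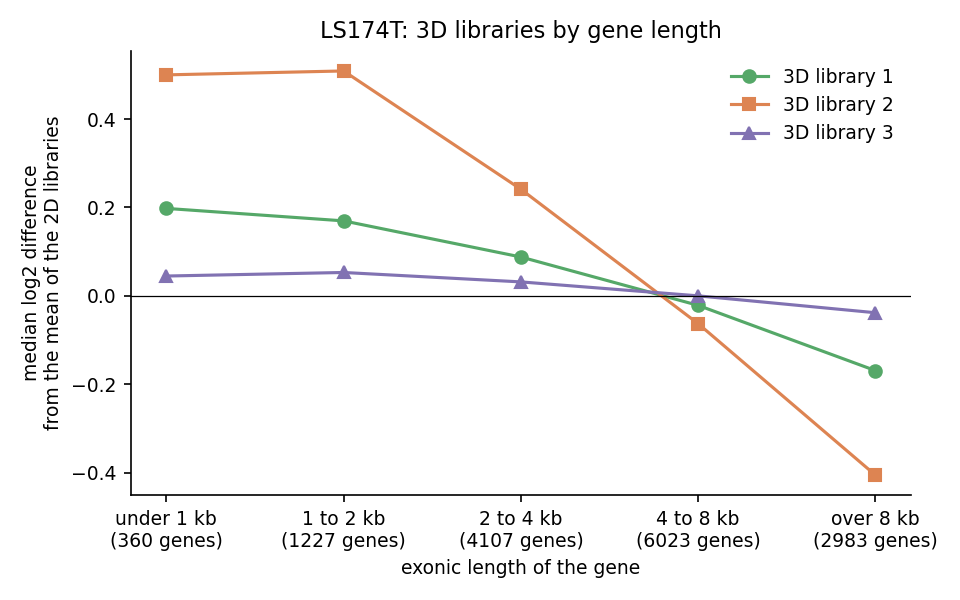
Median log2 difference of each LS174T 3D library from the mean of the 2D libraries (vertical axis) for protein-coding genes in classes of exonic length (horizontal axis). 3D library 2 runs from 0.50 for genes under 1 kb to -0.41 for genes over 8 kb, while library 3 stays between 0.05 and -0.04.

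Across the genome, 2531 genes were higher in 3D than in 2D (13.1% of 19387) and 1774 were lower (9.15%) at an adjusted p under 0.05 in edgeR's quasi-likelihood test over all 24 libraries. Large changes were mostly increases, with 796 genes higher by at least 2-fold (4.11%) and 215 lower (1.11%). The median log2 fold change of all tested genes was 0.02. Genes called higher had a median exonic length of 3384 bases and genes called lower 7212, beside 4854 for the tested genes. Leaving out 3D library 2 gave 1398 genes higher (7.05% of 19822) and 685 lower (3.46%). Of the genes called with all libraries, 52.3% of the higher and 34.9% of the lower were also called without it. Leaving out 2D library 3 gave 1675 higher and 941 lower, and the lower genes numbered 995 without 2D library 1, 1021 without 2D library 2 and 2826 without 3D library 3. Every 3D library lay above every 2D library for 4057 genes (20.9%) and below for 3410 (17.6%). A fit of the 6 LS174T libraries alone called 1099 genes higher (6.85% of 16035) and 549 lower (3.42%). When 3D library 2 was left out of that fit the calls rose to 2313 higher (14.1% of 16361) and 1833 lower (11.2%), whereas leaving it out of the fit of all lines lowered them.

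**Figure D2:**
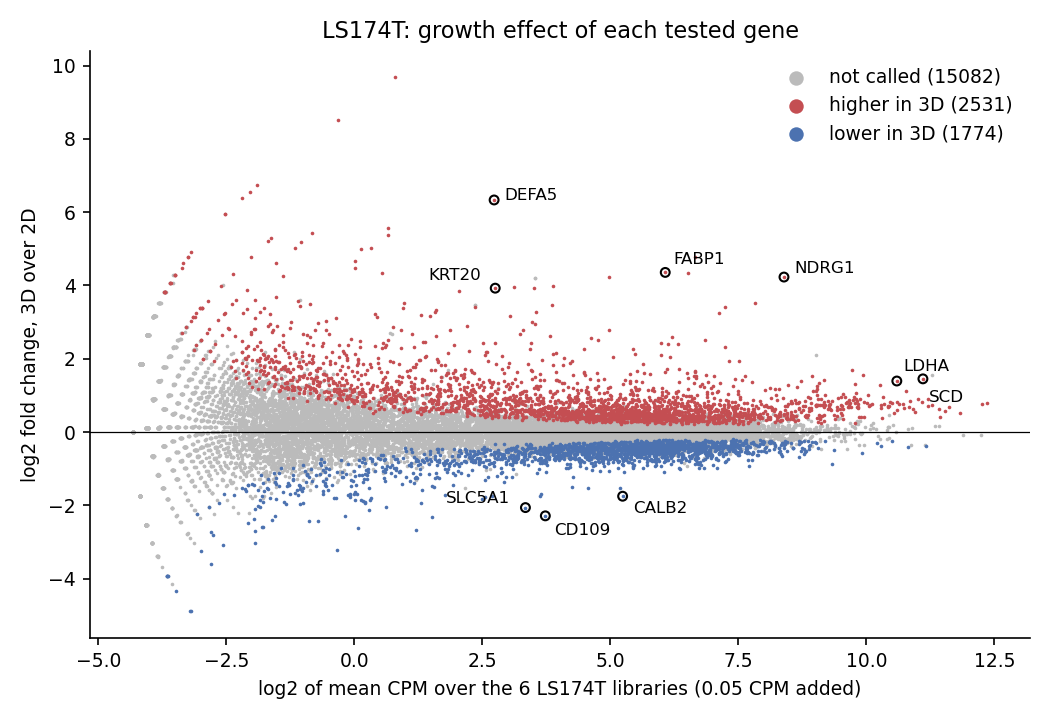
Log2 fold change of 3D over 2D in LS174T (vertical axis) against the mean level over the 6 libraries on a log2 CPM scale (horizontal axis), 1 point per tested gene. The 2531 genes called higher in 3D and the 1774 called lower by edgeR are coloured, and genes named in the text are marked.

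Taken one at a time against the 2D mean, 3D libraries 1, 2 and 3 had 1013, 1788 and 882 genes at least 2-fold above it and 450, 1356 and 244 at least 2-fold below it. Over the genes called higher, the median difference from the 2D mean was 0.57, 0.96 and 0.49 on the log2 scale. The calls used these libraries, so the medians are a description of how unequal the libraries were.

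The largest increases among genes called in both fits, with at least 5 CPM and no overlap of libraries, included HIF targets and genes of mature gut cells. NDUFA4L2 (ENSG00000185633, chromosome 12 from 57234903 to 57240715 on GRCh38), a HIF target in mitochondria, was at 12.1, 3.61 and 5.6 CPM in 2D and at 177, 229 and 174 CPM in 3D (log2 fold change 4.77, standard error 0.40, adjusted p = 5.0e-08, edgeR). MIR210HG (ENSG00000247095, chromosome 11 from 565660 to 568457), the host transcript of a hypoxia-responsive microRNA, was at 1.5, 1.45 and 1.24 CPM in 2D and at 18.2, 25.4 and 20.4 CPM in 3D (log2 fold change 3.93, standard error 0.20, adjusted p = 1.7e-11, edgeR). FABP1 (ENSG00000163586, chromosome 2 from 88122982 to 88128116), a fatty acid carrier of absorptive cells, was at 3.29, 6.43 and 9.03 CPM in 2D and at 116, 129 and 139 CPM in 3D (log2 fold change 4.36, standard error 0.26, adjusted p = 9.5e-09, edgeR). In these 3 genes the 3D libraries lay close to one another, library 2 included. DEFA5 (ENSG00000164816, chromosome 8 from 7055304 to 7056734), an antimicrobial defensin of Paneth cells, was near the floor in 2D, at 0.329, 0.0284 and 0.118 CPM, and at 6.68, 23.4 and 8.91 CPM in 3D (adjusted p = 8.7e-06, edgeR), highest in library 2. IL37, a cytokine that dampens inflammation, went from 0.53 ± 0.118 to 7.66 ± 0.645 CPM (SD, n = 3). The other genes of this group, FOS, NDRG1, ANKRD37, KRT20 and CA9, are given with their lists.

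The largest decreases were smaller in size. CD109 (ENSG00000156535, chromosome 6 from 73695785 to 73828316), a membrane protein that binds TGF-beta, was at 23.7, 19.96 and 22.2 CPM in 2D and at 4.41, 3.28 and 5.71 CPM in 3D (log2 fold change -2.29, standard error 0.24, adjusted p = 6.1e-07, edgeR). SLC5A1 (ENSG00000100170, chromosome 22 from 32043032 to 32113029), the sodium-glucose cotransporter of the gut, was at 15.9, 14.7 and 18.2 CPM in 2D and at 4.35, 3.43 and 3.87 CPM in 3D (log2 fold change -2.06, standard error 0.18, adjusted p = 3.1e-08, edgeR). CALB2 (ENSG00000172137, chromosome 16 from 71358713 to 71390438), the calcium-binding protein calretinin, was at 63, 52.6 and 58.9 CPM in 2D and at 17.3, 17.9 and 16.6 CPM in 3D (log2 fold change -1.75, standard error 0.13, adjusted p = 3.6e-09, edgeR). Each of these was below every 2D library in all 3 of the 3D libraries, as the rule that picked them required. That held for 17.6% of all tested genes. The others were the kinesin KIFC3 (-1.82), the matrix protein SMOC1 (-1.76), SH3TC2 (-1.76), the matrix protein ECM1 (-1.75), FAIM2, an inhibitor of Fas-mediated death (-1.71), SKIL, a repressor of SMAD signaling (-1.70), and the adhesion molecule CEACAM6 (-1.53), all as log2 fold changes.

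Gene lists are described by the members called and by their median, and where few members were called or missed they are named, some of them after their values were seen. Most hypoxia response genes rose. Of 29 tested genes, 26 were higher in 3D and 0 lower, where 13.1% of all tested genes were higher, and their median log2 fold change was 1.36. CA9 (ENSG00000107159, chromosome 9 from 35673856 to 35681159), a carbonic anhydrase that limits acid build-up, was at 56.2, 24.3 and 29.2 CPM in 2D and at 355, 544 and 351 CPM in 3D (log2 fold change 3.51, standard error 0.33, adjusted p = 3.5e-07, edgeR). NDRG1 (ENSG00000104419, chromosome 8 from 133237171 to 133302022), a stress and differentiation gene, was at 37.6, 33 and 31.3 CPM in 2D and at 652, 564 and 695 CPM in 3D (log2 fold change 4.23, standard error 0.24, adjusted p = 6.7e-11, edgeR). ANKRD37 (ENSG00000186352, chromosome 4 from 185396021 to 185400628), a HIF target, was at 1.29, 1.19 and 0.622 CPM in 2D and at 13.6, 21.7 and 13.1 CPM in 3D (log2 fold change 3.95, standard error 0.32, adjusted p = 1.2e-08, edgeR). No 2D library reached any 3D library in these genes, as the rule for the largest increases required. That held for 20.9% of all tested genes.

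BNIP3 (ENSG00000176171, chromosome 10 from 131966455 to 131982013), a receptor that marks mitochondria for removal, was at 26.1, 26.3 and 24.2 CPM in 2D and at 127, 145 and 132 CPM in 3D (log2 fold change 2.40, standard error 0.13, adjusted p = 2.5e-11, edgeR). PFKFB4, a regulator of glycolytic flux, rose by 2.13 on the log2 scale. VEGFA, the vessel growth factor, was at 109.9, 135 and 122 CPM in 2D and at 359, 251 and 333 CPM in 3D (log2 fold change 1.36, standard error 0.16, adjusted p = 2.7e-06, edgeR), with library 2 the lowest in 3D. Those not called included CA12 (0.42, adjusted p = 0.068) and CXCR4 (0.27, 0.39). When 3D library 2 was left out, 27 were higher, with a median of 1.51. The list's median over the 2D mean was 1.26, 1.41 and 1.5 in 3D libraries 1, 2 and 3.

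Promoter windows of 3 hypoxia genes are shown because they hold ACGTG, core letters of the HIF response element. Each spans the RefSeq start on GRCh38.p14, lies mostly upstream of it and is written along the gene, with ACGTG on either strand in capitals. The windows are chr9:35673678-35673977 (plus strand), chr4:185396591-185396890 (plus strand) and chr10:131981874-131982173 (minus strand).
CA9: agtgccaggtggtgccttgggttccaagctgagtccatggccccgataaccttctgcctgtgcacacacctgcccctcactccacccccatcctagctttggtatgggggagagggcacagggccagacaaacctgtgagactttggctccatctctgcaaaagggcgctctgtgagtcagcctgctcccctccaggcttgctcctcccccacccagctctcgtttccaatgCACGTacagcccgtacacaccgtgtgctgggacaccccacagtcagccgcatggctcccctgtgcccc
ANKRD37: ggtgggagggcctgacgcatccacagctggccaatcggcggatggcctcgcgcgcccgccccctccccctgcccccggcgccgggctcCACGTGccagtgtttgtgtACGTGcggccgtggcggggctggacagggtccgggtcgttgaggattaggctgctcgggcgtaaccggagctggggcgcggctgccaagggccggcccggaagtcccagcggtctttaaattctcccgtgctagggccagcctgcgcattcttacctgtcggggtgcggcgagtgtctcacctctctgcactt
BNIP3: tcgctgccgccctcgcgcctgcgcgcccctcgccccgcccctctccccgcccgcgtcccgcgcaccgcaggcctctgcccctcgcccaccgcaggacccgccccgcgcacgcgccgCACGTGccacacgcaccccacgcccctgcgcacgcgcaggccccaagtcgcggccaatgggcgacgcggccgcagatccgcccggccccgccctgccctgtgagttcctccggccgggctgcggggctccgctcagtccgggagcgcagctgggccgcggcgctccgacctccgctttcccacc
The letters CACGTG read the same on both strands and count as a match on each. Of the 30 genes of the list, 25 had a window in the table used and 17 of these (68.0%) held the motif on either strand, against 24.9% of 27305 genes with a window. A match describes letters and is not a measured binding site.

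Glycolysis rose with the hypoxia genes. Of 21 tested genes for glucose uptake, glycolysis and lactate export, 18 were higher and 0 lower, with a median of 0.72. Of all tested genes 13.1% were higher and 9.15% lower. LDHA, which turns pyruvate into lactate, was at 910.1, 829 and 820.2 CPM in 2D and at 2169.6, 2228 and 2318 CPM in 3D (log2 fold change 1.39, standard error 0.09, adjusted p = 2.1e-10, edgeR). ALDOC, an aldolase isoform, was at 28.5, 25.8 and 23.4 CPM in 2D and at 270.2, 296 and 264 CPM in 3D (log2 fold change 3.42, standard error 0.27, adjusted p = 1.1e-08, edgeR). PDK1, which holds pyruvate out of the mitochondrion, was at 29.6, 35.3 and 33.1 CPM in 2D and at 103, 77.5 and 125 CPM in 3D (log2 fold change 1.64, standard error 0.14, adjusted p = 3.1e-08, edgeR). LDHA and ALDOC were even across the 3D libraries, and PDK1 was lowest in library 2. PGK1, phosphoglycerate kinase, rose by 1.56. HK1 (0.16), PFKM (-0.02) and the lactate transporter SLC16A1 (0.20) were not called. Without 3D library 2, 17 genes were higher, where 7.05% of all genes were.

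Sterol synthesis genes rose as well. Of 24 sterol synthesis and uptake genes, 22 were higher and 0 lower, with a median of 0.73, beside 13.1% and 9.15% of all tested genes. HMGCS1, which feeds the mevalonate pathway, was at 125, 186 and 175 CPM in 2D and at 370.3, 297 and 409 CPM in 3D (log2 fold change 1.15, standard error 0.16, adjusted p = 2.3e-05, edgeR). FDPS, which makes farnesyl diphosphate, was at 281, 317 and 318 CPM in 2D and at 690.0, 971 and 649 CPM in 3D (log2 fold change 1.33, standard error 0.14, adjusted p = 5.6e-07, edgeR). Both were apart between 2D and 3D, as were 20.9% of all tested genes in the upward direction. Library 2 was lowest in 3D for HMGCS1 and highest for FDPS. IDI1 rose by 0.96 and MVD by 1.33, both enzymes of the mevalonate pathway. STARD4 (0.45, adjusted p = 0.091) was among those not called. Without 3D library 2, 21 genes were higher, where 7.05% of all genes were.

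In fatty acid synthesis, 5 of 11 genes were higher and 0 lower, where 13.1% and 9.15% of all tested genes were. The higher genes were ACSS2 (1.35), SCD (1.45), FADS2 (0.75), SREBF1 (0.47) and FASN (0.41). SCD, the stearoyl-CoA desaturase, was at 881, 1352 and 1304 CPM in 2D and at 3595, 2147 and 3926 CPM in 3D, and library 2 was the lowest in 3D.

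**Figure D3:**
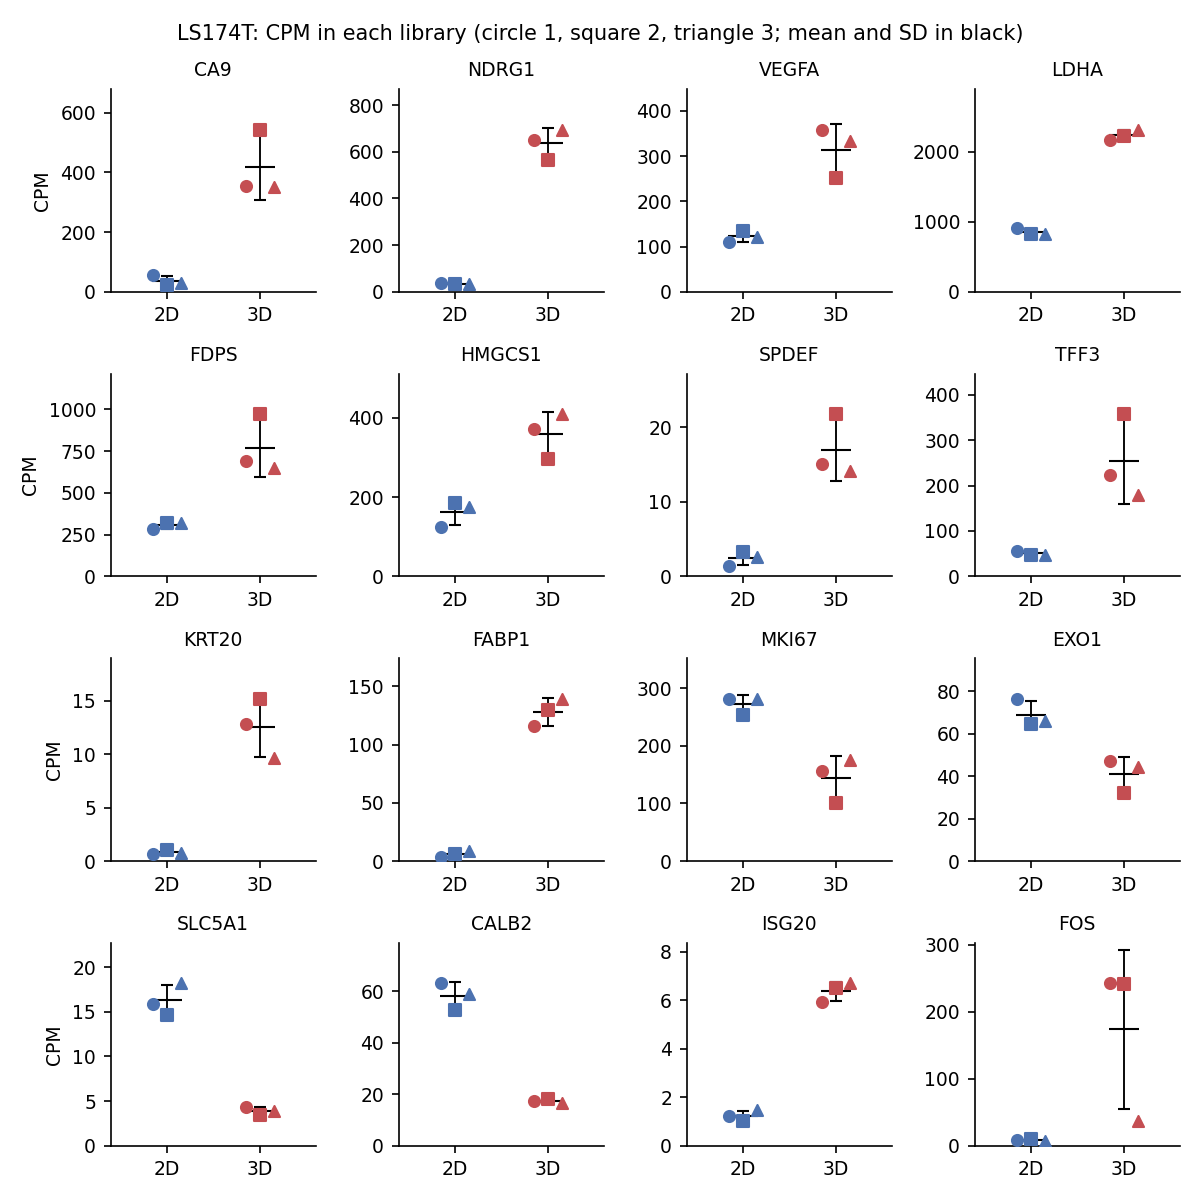
CPM of 16 genes in each LS174T library, 2D and 3D side by side, with a symbol per library and the mean and SD. The libraries of the 2 conditions do not overlap for CA9, LDHA, HMGCS1, TFF3 or MKI67, and 3D library 2 is the highest for TFF3 (357 CPM) and the lowest for MKI67 (101 CPM).

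Proliferation genes moved down by small steps. Of 43 S phase genes, 22 were lower, where 9.15% of all tested genes were, and 1 was higher, GMNN (0.33), an inhibitor of replication licensing. Their median was -0.29. EXO1, a repair exonuclease, was at 76.3, 64.4 and 66.1 CPM in 2D and at 47, 32 and 44.3 CPM in 3D (log2 fold change -0.74, standard error 0.12, adjusted p = 1.3e-04, edgeR). The helicase gene BLM had a log2 fold change of -0.60 and DTL, part of a ubiquitin ligase, -0.52. Of 54 G2/M genes, 18 were lower and 0 higher, with a median of -0.22. MKI67, which encodes the Ki-67 antigen, was at 281, 254 and 281 CPM in 2D and at 156, 101 and 174 CPM in 3D (log2 fold change -0.92, standard error 0.18, adjusted p = 0.0012, edgeR). In EXO1 and MKI67 the 3D libraries lay below all 2D libraries, as in 17.6% of all tested genes, and library 2 was the lowest. EXO1 was named for its small p, which favors such a gap. Without 3D library 2, 17 S phase and 9 G2/M genes were lower (3.46% of all genes), and MKI67 was at -0.71 (adjusted p = 0.014, edgeR). The G2/M count was 9 without 2D library 2 and 8 without 2D library 3.

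Many goblet cell and mucin genes rose. Of 22 tested, 15 were higher and 1 lower, with a median of 1.41, beside 13.1% and 9.15% of all tested genes. SPDEF, a transcription factor of goblet cell maturation, was at 1.41, 3.27 and 2.67 CPM in 2D and at 15, 21.7 and 14.1 CPM in 3D (log2 fold change 2.78, standard error 0.24, adjusted p = 2.5e-08, edgeR). TFF3, a trefoil peptide of mucus, was at 56.7, 47.9 and 47.3 CPM in 2D and at 223, 357 and 179 CPM in 3D (log2 fold change 2.32, standard error 0.23, adjusted p = 7.6e-07, edgeR). FCGBP, a protein of the mucus gel, was at 25.8, 40.2 and 37.1 CPM in 2D and at 158, 292 and 136 CPM in 3D (log2 fold change 2.50, standard error 0.27, adjusted p = 1.1e-06, edgeR). Each was highest in 3D library 2 and above every 2D library in the others. They were named for a small p, and 20.9% of all tested genes had all 3D libraries above 2D. SPINK4, a secreted goblet cell peptide, rose from 7.86 ± 1.53 to 54.7 ± 24.1 CPM (SD, n = 3). The gel-forming mucin gene MUC2 was at 60.9, 40.7 and 51.1 CPM in 2D and at 140.4, 213 and 89.1 CPM in 3D (log2 fold change 1.53, standard error 0.37, adjusted p = 0.0058, edgeR), and was not called without 3D library 2 (1.18, adjusted p = 0.066). MUC5AC, a mucin of stomach and airways, was lower (-0.86, adjusted p = 0.010). With that library left out, 10 genes were higher and 1 lower, with a median of 1.15.

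Absorptive genes were split. Of 20 tested, 9 were higher and 2 lower, with a median of 0.68, where 13.1% and 9.15% of all tested genes were called. KRT20 (ENSG00000171431, chromosome 17 from 40875941 to 40885227), a keratin of mature colon epithelium, was at 0.658, 1.05 and 0.741 CPM in 2D and at 12.8, 15.2 and 9.64 CPM in 3D (log2 fold change 3.93, standard error 0.21, adjusted p = 2.5e-11, edgeR). ANPEP, a brush border peptidase, was at 0.568, 0.569 and 0.504 CPM in 2D and at 4.75, 4.3 and 5.65 CPM in 3D, and MYO1A, a brush border myosin, was at 7.59, 8.16 and 7.67 CPM in 2D and at 26.5, 33.5 and 26.8 CPM in 3D. In all 3 the 2D and 3D libraries did not overlap, which for KRT20 the rule for the largest increases required. All 3D libraries lay above 2D for 20.9% of all tested genes. The lower genes were CEACAM6 and the sulfate transporter gene SLC26A2 (-0.70, adjusted p = 0.029, or 0.18 without 3D library 2, edgeR). Without that library 7 were higher and 1 lower.

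Of 11 enteroendocrine genes, 2 were higher, where 13.1% of all tested genes were. NEUROG3, the factor that starts the endocrine lineage, was at 0.658, 1.62 and 1.63 CPM in 2D and at 3.07, 3.83 and 3.84 CPM in 3D (adjusted p = 0.020, edgeR), and was not called without 3D library 2 (0.066) or without 2D library 1 (0.098). INSM1, a later endocrine factor, was at 0.209, 0.284 and 0.474 CPM in 2D and at 0.766, 0.547 and 1.17 CPM in 3D (adjusted p = 0.037). Its call was lost without 3D library 1 (0.064), 3D library 3 (0.12), 2D library 1 (0.14) or 2D library 2 (0.12).

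Of 25 Wnt target and crypt stem genes, 4 were higher (LEF1, MYC, CD44 and OLFM4) and 4 lower (LGR5, SMOC2, NKD1 and TCF7), beside 13.1% and 9.15% of all tested genes. LGR5, the receptor that marks crypt stem cells, was at 28.7, 33.8 and 33.9 CPM in 2D and at 17.9, 10.8 and 24.6 CPM in 3D (log2 fold change -0.85, standard error 0.22, adjusted p = 0.0088, edgeR), and was not called without 3D library 2 (-0.59, adjusted p = 0.054). MYC was at 211, 223 and 215 CPM in 2D and at 439, 294 and 309 CPM in 3D (log2 fold change 0.68, standard error 0.13, adjusted p = 9.7e-04, edgeR), highest in library 1. OLFM4, another crypt base gene, was at 39.6, 99.8 and 86.3 CPM in 2D and at 227, 315 and 329.5 CPM in 3D (adjusted p = 0.0086, edgeR, and 0.14 by DESeq2). Without 3D library 2, 4 genes were higher and 1 lower, and 2 were higher without any 1 of the 2D libraries.

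Immediate early and ERK feedback genes were higher in 13 of 24 cases and lower in 3, with a median of 0.59, beside 13.1% and 9.15% of all tested genes. ETV4, an ERK-responsive transcription factor, was at 111, 118 and 107 CPM in 2D and at 259, 248 and 231 CPM in 3D (log2 fold change 1.13, standard error 0.08, adjusted p = 2.8e-09, edgeR). JUN was at 25.6, 25.7 and 21.4 CPM in 2D and at 132, 118 and 59.1 CPM in 3D (log2 fold change 2.09, standard error 0.25, adjusted p = 3.0e-06, edgeR). FOS (ENSG00000170345, chromosome 14 from 75278774 to 75282230) was at 8.82, 9.87 and 7.14 CPM in 2D and at 242, 242 and 36.2 CPM in 3D (log2 fold change 4.33, standard error 0.59, adjusted p = 6.3e-05, edgeR). ETV4 was even over the 3D libraries, whereas JUN and FOS were lowest in library 3, though still above 2D. FOS was not called in the LS174T libraries alone without 3D library 2 (adjusted p = 0.083). AREG, a ligand of the epidermal growth factor receptor, rose by 0.89 and the phosphatase gene DUSP1 by 2.94. The lower genes were SPRED1, ETV5 and EPHA4. The counts were 9 and 1 without 3D library 2.

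All 7 metallothionein genes, which encode zinc and copper binding proteins, were higher with all libraries, where 13.1% of all tested genes were. They were also higher without any 1 of the libraries, and their median was 1.44. MT1G was at 14.9, 18.4 and 11.3 CPM in 2D and at 68.2, 97.4 and 49.4 CPM in 3D (log2 fold change 2.27, standard error 0.27, adjusted p = 3.6e-06, edgeR), and MT2A was at 80.3, 82.6 and 71.7 CPM in 2D and at 156, 199 and 124 CPM in 3D (log2 fold change 1.03, standard error 0.15, adjusted p = 4.6e-05, edgeR). Library 2 was the highest and library 3 the lowest in 3D for both. These genes are near-identical copies, and since multiply aligned reads had been removed their levels are uncertain. Of the exonic bases of MT1X, 18.1% are shared with another annotated gene.

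Of 24 ATF4 and amino acid genes, 7 were higher, where 13.1% of all tested genes were, and 1 was lower, the transporter gene SLC7A5 (-0.51). SHMT2, a mitochondrial enzyme of serine use, was at 325, 307 and 300.0 CPM in 2D and at 632, 762 and 637 CPM in 3D (log2 fold change 1.12, standard error 0.09, adjusted p = 6.3e-09, edgeR), and TRIB3, a pseudokinase induced by ATF4, rose by 1.41. The number higher was 4 without 3D library 2 and 4 without 2D library 1. Of 24 p53 targets, 6 were higher and 1 lower, MDM2 (-0.49), the ligase that degrades p53. GDF15, a stress-induced cytokine, was at 77.4, 62.2 and 57.4 CPM in 2D and at 205, 389 and 165 CPM in 3D (log2 fold change 1.95, standard error 0.23, adjusted p = 2.5e-06, edgeR). CDKN1A, which encodes the cell cycle inhibitor p21, was at 168, 149 and 149 CPM in 2D and at 280.2, 353 and 221 CPM in 3D (log2 fold change 0.88, standard error 0.25, adjusted p = 0.016, edgeR). It was not called without 3D library 2 (adjusted p = 0.12), 2D library 2 (0.058) or 2D library 3 (0.059). The number of p53 targets that were higher was 3 without 3D library 2, 3 without 2D library 1 and 3 without 2D library 2, and 0 were lower without 3D library 2. Without that library 7.05% of all genes were higher.

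Of 17 NRF2 targets, 7 were higher and 1 lower, where 13.1% and 9.15% of all tested genes were. AKR1C3, an aldo-keto reductase, was at 109, 133 and 145 CPM in 2D and at 190.0, 347 and 188 CPM in 3D (adjusted p = 0.0052, or 0.060 without 3D library 2, edgeR). Without that library 0 NRF2 targets were higher and 2 lower, and without 2D library 1 4 were higher. With the LS174T libraries alone and without 3D library 2, 8 were higher by edgeR, where 14.1% of all genes were. Of 19 genes for chaperones of the endoplasmic reticulum, 1 was higher and 1 lower, both under the share of all tested genes. XBP1, a factor of the unfolded protein response, was the higher one (0.49, adjusted p = 0.0066, or 0.063 without 3D library 2) and the chaperone gene HYOU1 the lower one (-0.36, adjusted p = 0.011).

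In the actin, SRF and YAP list 5 of 22 were higher and 3 lower, where 13.1% and 9.15% of all tested genes were. FLNA, the actin cross-linker filamin A, was at 1096, 661 and 746 CPM in 2D and at 417, 520.2 and 439 CPM in 3D (log2 fold change -0.86, standard error 0.15, adjusted p = 4.0e-04, edgeR), and the tropomyosin gene TPM1 was at 114, 105 and 112 CPM in 2D and at 154, 144 and 149 CPM in 3D (log2 fold change 0.43, standard error 0.08, adjusted p = 7.2e-04, edgeR). The number higher was 3 without 3D library 2 and 3 without 2D library 2 or without 2D library 3. In the matrix and integrin list 4 of 20 were lower, COL4A2 (-1.01), ITGB5 (-0.49), LAMA3 (-0.74) and ITGA3 (-0.33), and 1 was higher, under the share of all tested genes. That gene, ITGA5, a chain of a fibronectin receptor, was at 1.79, 1.59 and 1.72 CPM in 2D and at 6.53, 4.19 and 4.82 CPM in 3D (log2 fold change 1.61, standard error 0.19, adjusted p = 3.9e-06, edgeR).

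In the list for epithelial-mesenchymal transition, 2 of 6 tested genes were called, both higher, where 13.1% of all tested genes were. SNAI1, a repressor of epithelial genes, was at 2.003, 2.05 and 1.9 CPM in 2D and at 3.49, 6.78 and 2.06 CPM in 3D (adjusted p = 0.035, edgeR), and was not called without 3D library 2 (0.37) or any 1 of the 2D libraries (0.083, 0.080 and 0.097). SNAI2 had 0 counts in 2D and 1, 2 and 3 counts in 3D, at or under the floor. CDH1, the epithelial cadherin gene, averaged 22.8 CPM in 2D and 23 CPM in 3D.

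Of 22 purinergic signaling genes, the receptors and enzymes of extracellular ATP and adenosine, 12 could be tested and 1 was called. The gene called was higher, as were 13.1% of all tested genes. P2RX4, an ATP-gated channel, was at 5.68, 6.8 and 6.25 CPM in 2D and at 8.98, 11 and 7.68 CPM in 3D (log2 fold change 0.56, standard error 0.16, adjusted p = 0.016, edgeR), and was not called without 3D library 2 (0.11), without 2D library 1 (0.072) or in the 6 libraries alone (0.067). P2RY1, an ADP receptor, was at 9.42, 9.87 and 9.78 CPM in 2D and at 5.58, 3.97 and 9.18 CPM in 3D (log2 fold change -0.63, standard error 0.23, adjusted p = 0.052, edgeR), with 3D library 3 next to the 2D libraries. It was called without 3D library 3 (adjusted p = 0.0018), by DESeq2 (0.041), with a replicate block (0.042), with all genes of at least 1 count kept (0.0067) and by limma voom with library weights (7.9e-06). NT5E, which makes adenosine outside the cell, was at 40.3, 50.05 and 50.3 CPM in 2D and at 41, 33.7 and 43.8 CPM in 3D (log2 fold change -0.25, standard error 0.16, adjusted p = 0.27, edgeR).

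In the lists for ribosomal proteins and the respiratory chain, 3D library 2 was the highest. Of 79 tested ribosomal protein genes, 77 were called higher, and their median over the 2D mean was 0.53, 1.29 and 0.33 in 3D libraries 1, 2 and 3. RPL11 was at 684, 632 and 631 CPM in 2D and at 1036, 1585 and 875 CPM in 3D. Without 3D library 2 56 were called, and in the 6 libraries alone 3 were, although the median log2 fold change there was 0.76 beside 0.76 with all 24. In the LS174T libraries without 3D library 2, 74 were called, with a median of 0.43. Of 59 nuclear genes of the respiratory chain, 34 were called higher with all libraries and 11 without 3D library 2. In the 6 libraries alone 2 were, and 19 in those without 3D library 2. Of all tested genes, 13.1% were higher with all libraries and 7.05% without 3D library 2. The share was 6.85% in the 6 libraries alone, above that of both lists there, and 14.1% in those without 3D library 2. COX4I1, a subunit of cytochrome oxidase, was at 333, 326 and 327 CPM in 2D and at 456, 744 and 402 CPM in 3D. The respiratory chain count was 21, 22 and 20 without 2D library 1, 2 or 3. Reads shared with the many pseudogene copies of both lists had been removed as multiple alignments, so these levels are uncertain.

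None of the 13 mitochondrially encoded messenger RNAs was called by edgeR, 0 had an unadjusted p under 0.05, and DESeq2 called 0. With all genes of at least 1 count kept, edgeR called 4 of them higher, as did limma voom with library weights. Of 117 tested small nucleolar RNAs, which guide RNA modification, 3 were higher and 7 lower, both under the share of all tested genes. SNORD110 was at 1.32, 1.11 and 0.889 CPM in 2D and at 0.399, 0.219 and 0.307 CPM in 3D (log2 fold change -1.81, standard error 0.42, adjusted p = 0.0043, edgeR) and SNORD68 at 0.688, 0.682 and 0.385 CPM in 2D and at 1.66, 1.31 and 0.798 CPM in 3D (log2 fold change 1.09, standard error 0.28, adjusted p = 0.0087, edgeR). Both lie wholly within exonic sequence of host genes on the same strand, NOP56 and RPL13, so their reads and those of their hosts cannot be told apart. Without 2D library 1, 2 or 3 the number lower was 2, 3 and 4. Without 3D library 2, 1 was higher and 5 lower, and in the LS174T libraries alone without it 2 and 22.

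**Figure D4:**
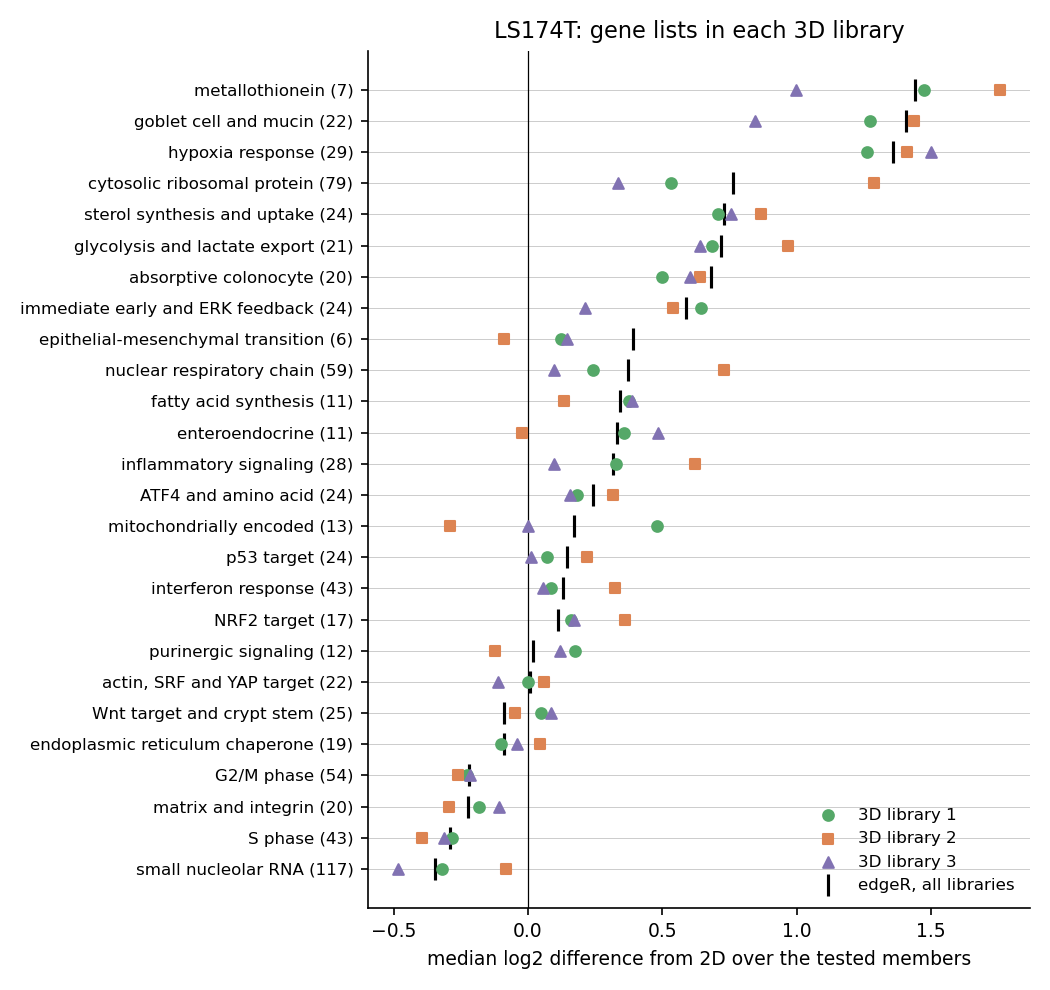
Median log2 difference from the mean of the 2D libraries over the tested members of each gene list, for each LS174T 3D library, beside the list's median edgeR log2 fold change. The 3 libraries lie close together for sterol synthesis (0.71, 0.87 and 0.76) and apart for ribosomal proteins (0.53, 1.29 and 0.33).

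The genes with the widest range among the 3D libraries, at 10 CPM or more in 3D, were RN7SK, the mitochondrial ribosomal RNAs, MT-ND6 and 6 immediate early or stress genes. RN7SK, a small nuclear RNA that restrains transcription elongation and lacks a poly(A) tail, was at 1.11, 1.19 and 1.18 CPM in 2D and at 0.92, 63.4 and 1.17 CPM in 3D (adjusted p = 0.097, edgeR). FOSB was at 1.79, 1.99 and 1.45 CPM in 2D and at 6.41, 74.8 and 2.06 CPM in 3D (adjusted p = 0.0091, or 0.24 without 3D library 2). Both stood out in library 2. EGR1 was at 7.56, 9.33 and 7.41 CPM in 2D and at 85.9, 37.3 and 14.8 CPM in 3D, highest in library 1 (adjusted p = 0.014), and was not called without 3D library 1 (0.080), 2D library 1 (0.054) or 2D library 3 (0.056). GADD45B was at 7.24, 6.2 and 7.14 CPM in 2D and at 7.54, 32.9 and 9.24 CPM in 3D (adjusted p = 0.031, or 0.59 without 3D library 2). The gene of a mitochondrial ribosomal RNA, MT-RNR1, was at 174, 212 and 197 CPM in 2D and at 634, 1614 and 258 CPM in 3D, and MT-ND6 at 13.6, 15.6 and 8.98 CPM in 2D and at 36.4, 7.69 and 12.7 CPM in 3D, with library 2 the highest for the first and the lowest in 3D for the second. What set these levels was not tested.

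The growth effect of LS174T was set against the mean effect of HT29, LS513 and HCT116 in the same edgeR fit. It was more positive for 190 genes (0.98% of those tested) and more negative for 382 (1.97%), or for 230 (1.16%) and 429 (2.16%) without 3D library 2. Without a 2D library the positive genes numbered 103 (library 1), 119 (library 2) and 103 (library 3), and the negative 242 without 2D library 1 and 222 without 2D library 3. KRT20 had a log2 fold change of 3.93 in LS174T and 0.76 in HT29, 1.54 in LS513 and 1.95 in HCT116 (difference 2.51, standard error 0.25, adjusted p = 2.4e-06, edgeR). SPDEF was at 2.78 in LS174T and 0.36 in HT29, 1.15 in LS513 and 0.05 in HCT116 (difference 2.27, adjusted p = 4.4e-04). Both genes thus rose further in LS174T than the mean of the other lines, and both were picked for large positive differences. Of 22 goblet cell and mucin genes, 2 differed positively and 0 negatively, and of 20 absorptive genes 2 and 1. Some genes could not be called here, since their effect in another line was fitted as 0 with a very large standard error. Examples are FABP1 (0 in HCT116, difference 0.53, standard error 1330) and DEFA5 (0 in HT29 and HCT116, difference 6.16, standard error 17987). For such genes the lack of a call does not mean that the lines were alike. The absorptive median was 0.68 in LS174T and 0.78 for the mean of the other lines, and the goblet median 1.41 and 0.94.

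SLC5A1 fell in LS174T (-2.06) and was at 2.11 in HT29, -1.29 in LS513 and 1.01 in HCT116 (difference -2.67, standard error 0.21, adjusted p = 5.1e-08, edgeR). CTSE, an intracellular aspartic protease, was at -1.52 in LS174T and -0.73 in HT29, 1.21 in LS513 and 2.52 in HCT116 (difference -2.52, adjusted p = 0.0038). IFITM1, an interferon-induced barrier to virus entry, was at 26.7, 30.8 and 29.6 CPM in 2D and at 40.2, 57.5 and 36.4 CPM in 3D in LS174T (0.62, adjusted p = 0.13), and its log2 fold change was 3.85 in HT29, 0.70 in LS513 and 7.42 in HCT116 (difference -3.37, adjusted p = 1.5e-04). IFITM1 shares 32.5% of its exonic bases with IFITM2.

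Among the negative differences were interferon response genes. Of the 43 in the list, 24 were more negative in LS174T than in the other lines and 0 more positive, and without 3D library 2 the numbers were 22 and 0. The list's median was 0.13 in LS174T and 1.61 for the mean of the other lines. Within LS174T 4 genes were higher (IFITM2, ISG15, ISG20 and OAS1) and 5 lower (OAS3, SAMD9, PARP9 and PARP14 among them), beside 13.1% and 9.15% of all tested genes. ISG20, an RNA exonuclease, was at 1.23, 1.02 and 1.45 CPM in 2D and at 5.92, 6.49 and 6.7 CPM in 3D (log2 fold change 2.37, standard error 0.25, adjusted p = 5.9e-07, edgeR). Without 3D library 2, 1 gene of the list was higher and 1 lower, with OAS1 (adjusted p = 0.084) and OAS3 (0.060) among those lost. When any 1 library was left out, between 1 and 8 were higher and between 1 and 4 lower.

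In the inflammatory list 10 of 28 tested genes were higher and 1 lower, NFKB1 (-0.27), or 7 and 1 without 3D library 2. The shares of all tested genes were 13.1% and 9.15%, or 7.05% and 3.46% without that library. PIGR, which carries antibodies across the epithelium, was at 514, 577 and 642 CPM in 2D and at 1030.5, 1254 and 1342 CPM in 3D (log2 fold change 1.06, standard error 0.17, adjusted p = 1.6e-04, edgeR). The chemokine gene CXCL2 was at 1.52, 1.88 and 1.93 CPM in 2D and at 10.1, 16.3 and 2.33 CPM in 3D, with library 3 close to the 2D libraries. IL1A had 2, 0 and 0 counts in 2D and 19, 24 and 28 in 3D. For sterol synthesis, 0 genes differed positively and 0 negatively from the other lines by edgeR, and the median was 0.73 in LS174T and 0.73 in the others. Without 3D library 2 the sterol numbers were 0 and 1. For hypoxia the numbers were 3 and 1, or 5 and 1 without 3D library 2, and the medians 1.36 and 1.13.

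**Figure D5:**
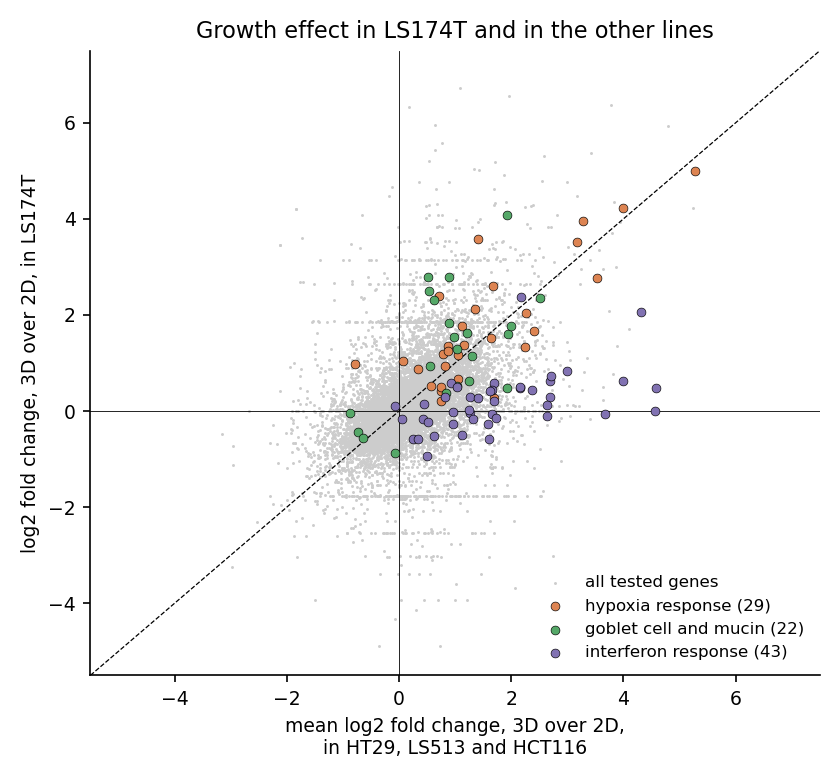
Log2 fold change of 3D over 2D in LS174T (vertical axis) against the mean log2 fold change in HT29, LS513 and HCT116 (horizontal axis), all tested genes in grey and gene lists in colour. The median of the interferon genes is 0.13 in LS174T and 1.61 in the other lines, and 2 genes lie outside the axes.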

How the data were processed

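RNA sequencing counts of 24 libraries from 4 CRC lines were used, and 1 technical file of another line was not analysed here. The authors deposited raw counts of reads per gene for each technical replicate, made from poly(A)-selected, strand-specific libraries that were trimmed, aligned with STAR and counted with HTSeq, and reads with several alignments were removed. The submitters' processing notes name bcl2fastq 2.18.0.12, Trim Galore 0.4.1 and HTSeq 0.5.3, with no version for STAR. Removing such reads lowers genes with near-identical copies. Of 58243 gene identifiers, 57980 matched the GENCODE annotation on GRCh38, which gave symbols, positions and exonic lengths.

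Counts were summed over the 8 technical replicates, so each library is 1 sample. Totals were 18723942 to 34277421 counts over all libraries, and intervals or floors cover counting error only, since no molecular identifiers were used. Genes were filtered with filterByExpr, scaled by TMM and tested with edgeR 4.0.16 (R 4.3.3) by the quasi-likelihood test over 8 groups, with Benjamini-Hochberg adjustment over all 19387 tested genes and a threshold of 0.05. A second contrast compared the LS174T effect with the mean of the other 3 lines. Spread was the root mean square difference of log2 CPM with a prior count of 2. On counts simulated for the LS174T comparison (19159 genes tested), 58.0% of the genes changed 1.5-fold, 84.1% of those changed 2-fold and 100% of those changed 4-fold were recovered, with 11 false calls. The simulation gave each gene the same spread in every library, with no trend on length and no library apart. Its figures may therefore not hold for the more widely spread LS174T 3D libraries.

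No pair of LS174T libraries within a group differed by as little as sampling noise. Alternatives were DESeq2 1.42.0, its size factors in edgeR, no filter on low counts, limma 3.58.1 voom with library weights, a replicate block, the 6 libraries alone and each library left out, and, chosen after seeing the data, the trend on length removed and the LS174T libraries without 3D library 2. Genes named were the 10 largest changes each way called in both the 24-library and 6-library fits with at least 5 CPM and no overlap. Further named genes were up to 4 members per list with the smallest p among those called, plus 12 fixed genes. Others were the 6 largest called differences from the other lines each way and the 10 widest ranges in 3D at 10 CPM or more. The comparison, its members and the 26 gene lists were chosen with earlier results of these data known. A few members of these lists are counted but not reported here by name.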

Additional observations from a re-analysis of the deposited data

Results flagged for a closer look

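The growth effect of LS174T differed from the mean effect of HT29, LS513 and HCT116, by a contrast in the edgeR fit of 24 libraries, for 190 genes in the positive and 382 in the negative direction. The 12 largest differences among the called genes with at least 5 CPM are given here with their Benjamini-Hochberg adjusted p. Genes that could not be called because another line gave no usable effect are left out.

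In the positive direction, FOS differed by 2.62 (0.028, effects 3.03 in HT29, 1.21 in LS513 and 0.89 in HCT116), CXCL2 by 2.58 (0.0067, effects -0.45 in HT29, 0.32 in LS513 and -0.35 in HCT116), KRT20 by 2.51 (2.4e-06), SPDEF by 2.27 (4.4e-04), RNASE1, a secreted ribonuclease, by 2.00 (0.0056, effects 0.52 in HT29, 1.42 in LS513 and 1.10 in HCT116) and FCGBP by 1.97 (0.0016, effects 1.40 in HT29, -0.31 in LS513 and 0.50 in HCT116). The FOS difference was called with all libraries and by no fit that left out 3D library 1 (adjusted p = 0.092), 3D library 2 (0.084), 2D library 1 (0.092), 2D library 2 (0.075) or 2D library 3 (0.11).

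In the negative direction, IFITM1 differed by -3.37 (1.5e-04), the homeobox gene MEIS3 by -3.14 (2.6e-04, effects 2.45 in HT29, 5.36 in LS513 and 1.33 in HCT116), the transporter gene SLC43A3 by -2.93 (0.016, effects 4.12 in HT29, 4.18 in LS513 and -0.37 in HCT116), SLC5A1 by -2.67 (5.1e-08), the calcium buffer gene CALB1 by -2.53 (0.037, effects 1.43 in HT29, 5.58 in LS513 and 4.66 in HCT116) and CTSE by -2.52 (0.0038). In LS174T itself MEIS3 (-0.10, adjusted p = 0.77, edgeR) and SLC43A3 (-0.29, 0.14) were not called, and CALB1 rose (1.36, 2.6e-05). SLC43A3 shares 29.9% of its exonic bases with another annotated gene. The CALB1 difference was not called without 3D library 1 (0.051), 2D library 1 (0.068) or 2D library 3 (0.054).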

How the results depend on the processing

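Counts of called genes moved with the fit used and with the libraries kept. In the 6 libraries alone 1099 genes were higher, 549 lower and 133 lower by at least 2-fold, against 2531, 1774 and 215 with all 24. Limma voom with library weights gave 5149 higher, 4838 lower, 1300 higher by at least 2-fold and 640 lower by at least 2-fold, and 2512 positive and 2869 negative differences from the other lines. Leaving out 1 LS174T library at a time gave 1398 to 3212 genes higher, 685 to 2826 lower, 517 to 993 higher by at least 2-fold (517 without 3D library 2) and 103 to 460 lower by at least 2-fold (103 without 3D library 2 and 460 without 3D library 3). The same left 103 to 244 positive and 222 to 429 negative differences. DESeq2 gave 450 positive and 689 negative differences, and removing the trend on length gave 288 positive ones. The causes were not tested.

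The spread among the 3D libraries was 0.51, and 0.66 with a prior count of 0.5 or 0.37 to 0.62 with 1 library left out. Among the 2D libraries it was 0.37, and 0.55 with a prior count of 0.5, 0.18 over genes of at least 10 CPM or 0.32 to 0.39 with 1 library left out. RN7SK turned from 4.21 to -0.22 with voom, -0.15 without 3D library 2 (4.78 without 3D library 1) and -0.15 in the LS174T libraries without it, and MT-ND6 turned from 0.58 to -0.31 without 3D library 1 (0.96 without 3D library 2), and neither was called by the edgeR test with all libraries. Of 125 named results called, 90 were called under every alternative.

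The deviations of equally numbered 2D and 3D libraries from their group means correlated at -0.13, -0.11 and 0.09. Those of unequally numbered ones correlated at -0.13 to 0.18. With means of only 3 libraries, these values cannot show whether equal numbers shared a culture or batch. With the replicate block, 1918 genes were higher, 1355 lower, and 84 positive and 216 negative differences were called. Counts near 3 per library limit low genes.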
